A study of Mus musculus with 6 samples.

Results

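Genes of the pluripotency network, the transcription factors and associated proteins that hold embryonic stem (ES) cells undifferentiated, were examined in mesoderm made from mouse ES cells. The members were Pou5f1, Nanog, Sox2, Zfp42, Esrrb, Klf4, Prdm14, Dppa4, Dppa5a and Utf1. They were found as all probe sets of the deposited table whose only gene symbol was one of these 10, which gave 15 of 45101 probe sets, for 10 of the 18193 genes with such a probe set; 7 genes had 1 probe set and Esrrb, Klf4 and Utf1 had several. Of the 15, 11 probe sets of 9 genes were bright enough to be tested, among 28363 tested in all, and the 3 Esrrb probe sets and 1 of Utf1 were not.

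Total RNA was hybridised to 6 Affymetrix arrays in 3 groups of 2. All cells were sorted on day 4 of embryoid body culture for Flk1 (gene Kdr), a receptor of lateral mesoderm. SclKO cells came from an ES line without functional Scl, derived from the line J1 of strain 129S4/SvJae, and were sorted on Flk1 alone. The titles of these arrays nevertheless read Flk+Scl-. WT Scl+ and WT Scl- cells came from a reporter line derived from R1, of (129/Sv x 129/Sv-CP)F1 origin, in which a human CD4 knock-in reports Scl (gene Tal1), a transcription factor needed for blood; they were the Flk1+ cells with and without human CD4. A comparison with SclKO therefore joins the knockout with another ES line, another strain and another gate, and these cannot be told apart. Each genotype was 1 ES line. The labels do not call the replicates separate cultures, so a p-value here weighs a difference against array-to-array spread, which may be technical.

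In ES cells Pou5f1 (Oct4), a POU-domain factor, binds DNA together with Sox2, an HMG-box factor, often at a joint Sox-Oct element, and these proteins activate Nanog and their own genes. Around them stand factors of the naive state, such as Esrrb, Klf4, Prdm14 and Zfp42 (Rex1), which are switched off early when ES cells leave that state. Pou5f1 and Nanog stay on for longer, in the epiblast and in the primitive streak through which mesoderm forms.

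Of the 10 members, 7 had a promoter in the RefSeq tables (GRCm38.p6), each window running from 250 bases before the gene start to 50 after it. The promoters of Pou5f1 and Nanog, whose profiles are compared below with those of other genes, are shown beside that of Zfp42, the 1 member whose promoter held an exact octamer. Capitals mark the Sox motif CATTGT in Nanog and the octamer ATGCAAAT, read by POU factors, in Zfp42, both matched on the opposite strand. The regions are chr6:122707315-122707614 (plus strand), chr8:43306960-43307259 (minus strand) and chr17:35505782-35506081 (plus strand).
Nanog: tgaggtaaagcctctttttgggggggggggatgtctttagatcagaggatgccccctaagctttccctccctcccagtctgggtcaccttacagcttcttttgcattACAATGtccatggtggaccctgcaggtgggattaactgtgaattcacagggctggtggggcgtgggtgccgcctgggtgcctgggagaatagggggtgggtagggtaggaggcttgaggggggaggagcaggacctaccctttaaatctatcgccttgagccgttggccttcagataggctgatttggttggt
Zfp42: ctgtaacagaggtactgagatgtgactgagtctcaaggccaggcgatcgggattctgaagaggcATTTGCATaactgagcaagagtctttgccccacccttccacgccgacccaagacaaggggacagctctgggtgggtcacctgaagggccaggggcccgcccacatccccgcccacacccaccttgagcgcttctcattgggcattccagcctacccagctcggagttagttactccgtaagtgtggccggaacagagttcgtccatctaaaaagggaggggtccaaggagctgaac
Pou5f1: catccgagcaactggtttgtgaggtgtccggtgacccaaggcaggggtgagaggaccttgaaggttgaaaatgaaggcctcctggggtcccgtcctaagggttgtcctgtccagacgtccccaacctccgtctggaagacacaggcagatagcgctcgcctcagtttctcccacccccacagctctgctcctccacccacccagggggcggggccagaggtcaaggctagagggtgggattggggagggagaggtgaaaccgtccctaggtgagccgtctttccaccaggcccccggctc

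Both strands were searched for exact matches of these letters, which do not overlap each other in a promoter shown. Near matches were not counted. Close to its Sox motif, Nanog reads ttttgcat, which differs from ATTTGCAT, the octamer on the opposite strand, only in its first letter. The octamer was in the promoters of 1.97% of 27025 genes (532 genes), and lay 186 to 179 bases before the start of Zfp42. The Sox motif was in those of 14.3% of the genes (3863 genes), among them 3 members, Nanog, Esrrb and Pou5f1. It lay 143 to 138 bases before the start in the Nanog window shown, and in Pou5f1 in a second window that is not shown. These are matches of letters, and no binding was measured.

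Levels are natural logs of the deposited values, and differences are in log units. Whether 1 log unit means 2-fold or 2.72-fold is not settled by the files, so folds are given under both readings, the smaller first. The limit for dim probe sets is each array's 40th percentile, 4.54 to 4.59. A probe set was tested if it lay above the limit on at least 2 arrays. Median levels were alike on the 6 arrays (5.2 to 5.25). Tal1 was at 5.71 and 6.14 in SclKO, 8.65 and 8.78 in WT Scl+, and 6.52 and 7.97 in WT Scl-. Kdr was between 10.83 and 11.35 on all arrays, and all 10 listed genes of Flk1+ mesoderm were bright enough to be tested. WT Scl+ replicate 2 stood apart from the other arrays. It lay at 78.4 on the first principal component (53.2% of the variance), against -38.1 to 11.5, and had the highest bacterial control bioB, 11.11 against 10.2 to 10.69. Where leaving it out moves a value named below by over 1.5 times, the value without it is given; leaving out arrays for other gene lists and for profile distances was added after the data had been seen.

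In the comparison of SclKO with WT Scl+, Pou5f1 and Dppa5a had the largest positive differences, at 1.52 and 1.22 log units. No member was called at an adjusted p under 0.05 over all probe sets tested (limma, 0 of 11, against 0.0106% of all). At an unadjusted p under 0.05 there were 2 as higher (7.35% of all as higher) and 0 as lower (5.68% of all as lower; 13% in both directions). Without overlap, 3 of the 11 were higher (24.4% of all) and 4 lower (18.2% of all), so both directions were present. The median difference over the 11 was 0.41 log units, against 0.05 over all probe sets tested. Without WT Scl+ replicate 2 that median was -0.23, and without replicate 1 it was 1.09. Over all 15 member probe sets, with those too dim to be tested, the median was 0.02 log units.

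Against WT Scl-, SclKO again had 0 of 11 members called by limma (0.0106% of all were called). At an unadjusted p under 0.05, 1 was higher (2.7% of all) and 2 were lower (2.77% of all; 5.47% in both directions). Without overlap, 5 were higher (21.7% of all) and 3 lower (19.5% of all). Sox2, dim on both WT Scl- arrays, was among the 5. The median difference was 0.27 log units, against 0.012 over all probe sets tested. It was 0.72 with 1 probe set per gene, and 0.14 to 0.47 without 1 array. Over all 15 member probe sets it was 0.1. Between WT Scl+ and WT Scl-, limma also called 0 of 11 (0% of all). Here 1 was higher (4.44% of all) and 1 lower (4.94% of all; 9.38% in both directions) at an unadjusted p under 0.05. Without overlap 3 were higher (16.6% of all) and 2 lower (21.2% of all). The median was 0.01 log units, against -0.045 over all probe sets tested; it was -0.4 without WT Scl+ replicate 1 and 0.4 without replicate 2. The 3 comparisons share arrays, so their values are not independent of each other.

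**Figure D1:**
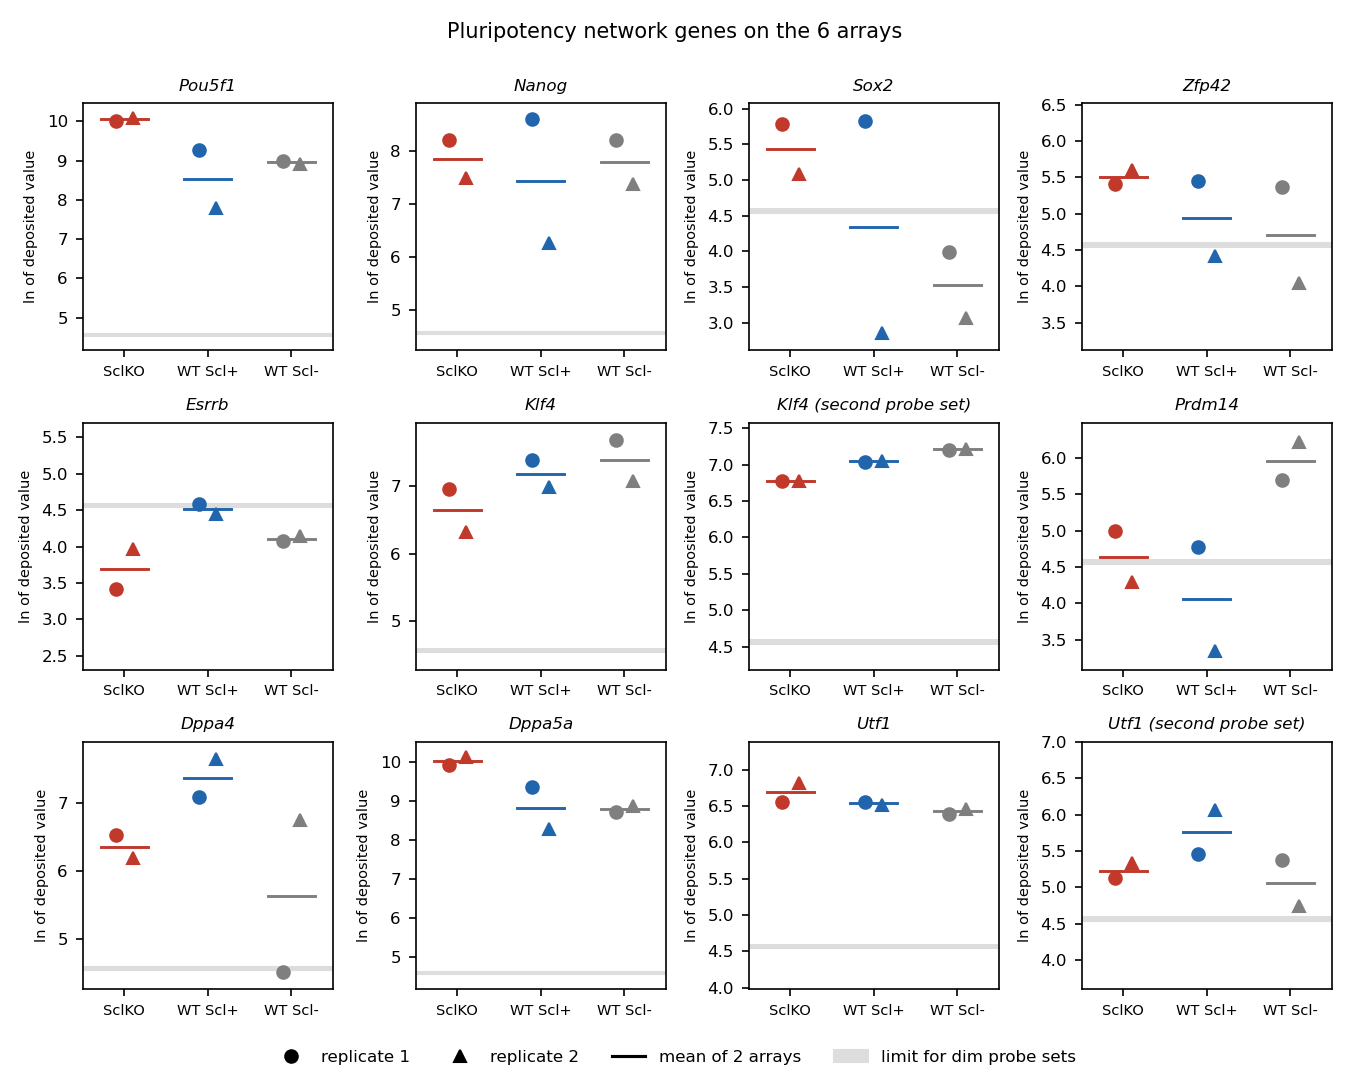
Natural log of the deposited value (y axis; its range differs between panels) of 12 member probe sets in SclKO, WT Scl+ and WT Scl- (x axis). Circles are replicate 1, triangles replicate 2, bars the mean of 2 arrays and the grey band the limit for dim probe sets, 4.54 to 4.59. Both SclKO arrays lie above all WT arrays for Pou5f1 and Dppa5a, while Nanog and Sox2 are split by the 2 WT Scl+ arrays.

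Pou5f1, the POU factor at the centre of the network, was at 10.01 and 10.09 in SclKO, 9.26 and 7.79 in WT Scl+, and 9 and 8.92 in WT Scl-. Both SclKO arrays were above all 4 WT arrays, as were those of 11.7% of the probe sets tested. The difference was 1.52 log units against WT Scl+ (SE 0.45, 2.87-fold or 4.57-fold, limma adjusted p = 0.272). Against WT Scl- it was 1.09 log units (SE 0.45, 2.12-fold or 2.96-fold, limma adjusted p = 0.898). The replicates of SclKO and of WT Scl- each lay within 0.08 log units, and those of WT Scl+ 1.47 apart. Without WT Scl+ replicate 1 the first difference was 2.26 log units, and without replicate 2 it was 0.78. Each of these fits leaves 1 WT Scl+ array, so only the sizes are given. In bulk RNA, more cells that express a gene and more RNA per cell cannot be told apart, here and for every gene below.

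Dppa5a, an RNA-binding protein with a KH domain that is abundant in ES cells, followed Pou5f1. It was at 9.92 and 10.14 in SclKO, 9.35 and 8.27 in WT Scl+, and 8.71 and 8.88 in WT Scl-. Both SclKO arrays again lay above all 4 WT arrays, and WT Scl+ overlapped WT Scl-. SclKO was higher than WT Scl+ by 1.22 log units (SE 0.35, 2.33-fold or 3.39-fold, limma adjusted p = 0.263) and than WT Scl- by 1.24 (SE 0.35, 2.36-fold or 3.44-fold, limma adjusted p = 0.886). Without WT Scl+ replicate 1 the first was 1.76, and without replicate 2 it was 0.68. The mouse genome carries processed pseudogene copies of Pou5f1, Nanog and Dppa5a, and whether these probe sets read them was not tested.

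Nanog, a homeodomain factor, was at 8.2 and 7.48 in SclKO, 8.59 and 6.26 in WT Scl+, and 8.2 and 7.37 in WT Scl-. The WT Scl+ arrays were the highest and the lowest of the 6, so every pair of groups overlapped. SclKO differed by 0.41 log units from WT Scl+ (SE 0.75, 95% interval -1.42 to 2.24) and by 0.05 from WT Scl- (SE 0.75, interval -1.78 to 1.88); the first was -0.76 without WT Scl+ replicate 2. In each of the 3 groups replicate 1 was the higher array, by 0.72, 2.33 and 0.83 log units in SclKO, WT Scl+ and WT Scl-. These intervals do not show that the groups had the same level.

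Sox2, the partner of Pou5f1 and also a factor of neural progenitors, was at 5.78 and 5.08 in SclKO, 5.83 and 2.86 in WT Scl+, and 3.99 and 3.07 in WT Scl-. It was above the limit for dim probe sets on 3 of 6 arrays, both of SclKO and WT Scl+ replicate 1. Both WT Scl- arrays were under the limit, so the fold of SclKO over WT Scl- was at least 1.80-fold or 2.33-fold. The measured difference was 1.9 log units (SE 0.92, limma adjusted p = 0.911). Of the neuroectoderm list, 4 of 10 genes with a probe set were bright enough to be tested. These were Pax6, Nes, Hes5 and Msi1, each above the limit on all 6 arrays. The other 6, among them Sox1, a defining neural gene, were under the limit on all 6 arrays.

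The factors of the naive state differed among themselves, and Esrrb was dim. Esrrb, an orphan nuclear receptor, was above the limit on 1 of 6 arrays with its brightest probe set (4.58 in WT Scl+ replicate 1) and on no array with the other 2. It was therefore not tested, and no fold is given. Zfp42, a zinc-finger protein used as a marker of naive ES cells, was at 5.41 and 5.6 in SclKO, 5.45 and 4.42 in WT Scl+, and 5.37 and 4.04 in WT Scl-. Replicate 2 of both WT groups was under the limit. SclKO differed from WT Scl+ by 0.57 log units (SE 0.5, limma adjusted p = 0.656) and from WT Scl- by 0.8 (SE 0.5, limma adjusted p = 0.947). The first was 0.06 without WT Scl+ replicate 2, and the second 0.14 without WT Scl- replicate 2.

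Klf4, a Krüppel-like factor of ES cells that endothelium also uses, ran the other way, with SclKO lowest. Its brighter probe set (mean over 6 arrays) was at 6.96 and 6.33 in SclKO, 7.39 and 6.99 in WT Scl+, and 7.69 and 7.08 in WT Scl-. The second was at 6.77 and 6.78 in SclKO, 7.04 and 7.05 in WT Scl+, and 7.2 and 7.22 in WT Scl-. On both probe sets the 2 SclKO arrays lay below all 4 WT arrays, as did those of 8.04% of the probe sets tested. The second probe set had replicates within 0.02 log units in each group. It differed by -0.44 log units between SclKO and WT Scl- (SE 0.15, limma unadjusted p = 0.0227, adjusted p = 0.895) and by -0.27 between SclKO and WT Scl+ (SE 0.15, limma adjusted p = 0.492). The SE comes from a spread that limma partly shares over all probe sets, and is wider than these replicates alone would give.

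Prdm14, a PR-domain repressor that shields the naive state from FGF signals and acts in germ cells, was highest in WT Scl-. It was at 4.99 and 4.29 in SclKO, 4.77 and 3.35 in WT Scl+, and 5.69 and 6.22 in WT Scl-. Replicate 2 of SclKO and of WT Scl+ were under the limit, and both WT Scl- arrays were above the other 4. The difference was -1.32 log units for SclKO against WT Scl- (SE 0.5, limma adjusted p = 0.898). With dim values set to the limit it was -1.17, and for WT Scl+ against WT Scl- -1.29 (measured -1.9, SE 0.5, limma adjusted p = 0.439, and -1.19 without WT Scl+ replicate 2). SclKO and WT Scl+ overlapped.

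Dppa4, a DNA-binding protein of early embryos and ES cells, was lowest on 1 WT Scl- array. It was at 6.54 and 6.19 in SclKO, 7.1 and 7.65 in WT Scl+, and 4.52 and 6.76 in WT Scl-. WT Scl+ was above both other groups without overlap, and WT Scl- replicate 1, under the limit, stood 2.24 log units below replicate 2. WT Scl+ exceeded WT Scl- by 1.73 log units (SE 0.68, limma unadjusted p = 0.0433, adjusted p = 0.523), and by 0.61 without WT Scl- replicate 1. SclKO differed from WT Scl+ by -1.01 (SE 0.68, limma adjusted p = 0.568).

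Dppa2, which binds DNA with Dppa4 and is its direct neighbour on chromosome 16 with 0 genes between them, was singled out after its values were seen. It was at 7.06 and 7.32 in SclKO, 6.41 and 7.31 in WT Scl+, and 3.95 and 6.2 in WT Scl-. WT Scl- replicate 1 was again the lowest array, but SclKO overlapped WT Scl+. SclKO exceeded WT Scl- by 2.12 log units (SE 0.71, limma adjusted p = 0.895). WT Scl- replicate 1 was under the limit for dim probe sets, and without it the difference was 0.99. That array was also the lowest for blood and endothelial genes, at a mean level of 5.09. SclKO was close to it at 5.17 and 5.69, while WT Scl- replicate 2 was at 6.64 and WT Scl+ at 7.57 and 7.8. The part of this split between the WT Scl- arrays in the Dppa2 and Dppa4 values was not tested.

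Utf1, a chromatin-associated protein of undifferentiated cells, was at 6.56 and 6.82 in SclKO, 6.56 and 6.51 in WT Scl+, and 6.39 and 6.46 in WT Scl-. The 6 arrays spanned 0.43 log units, and SclKO differed by 0.16 from WT Scl+ (SE 0.16, 95% interval -0.24 to 0.56) and by 0.27 from WT Scl- (SE 0.16, interval -0.13 to 0.67). Its second probe set disagreed. It was at 5.13 and 5.33 in SclKO, 5.46 and 6.06 in WT Scl+, and 5.38 and 4.74 in WT Scl-, with SclKO lower than WT Scl+ by -0.53 log units (SE 0.29, limma adjusted p = 0.503), or by -0.23 without WT Scl+ replicate 2. The third was under the limit on all 6 arrays.

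**Figure D2:**
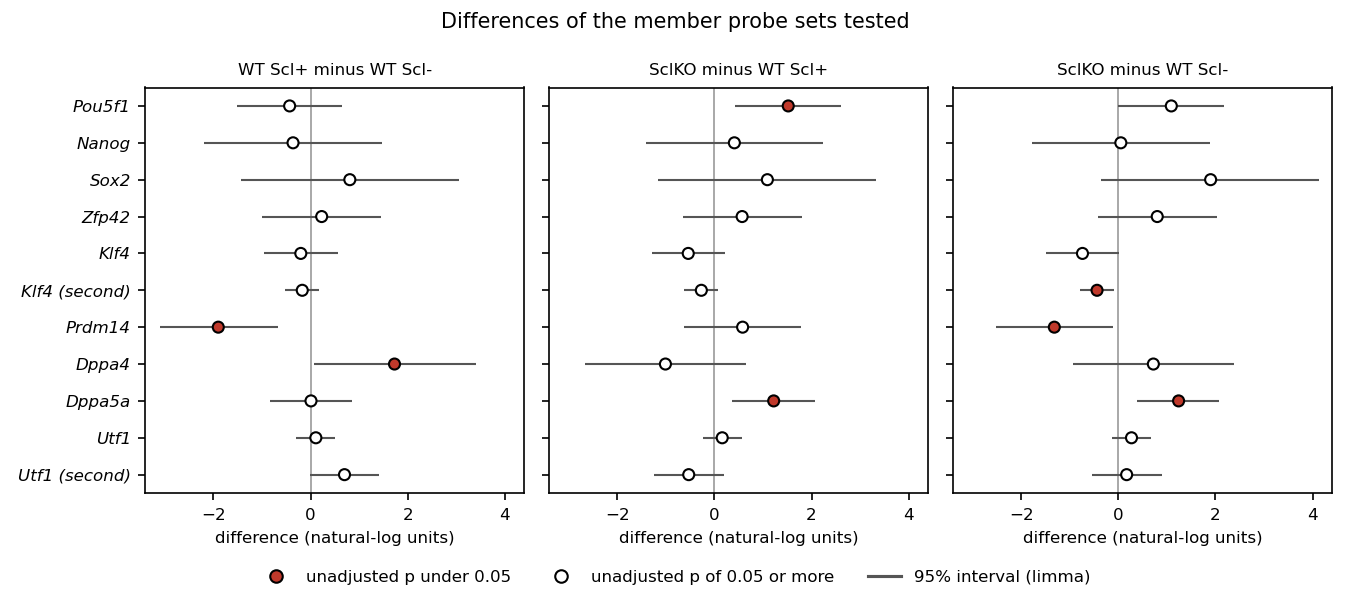
Difference in natural-log units (x axis) of the 11 member probe sets tested, for WT Scl+ minus WT Scl-, SclKO minus WT Scl+ and SclKO minus WT Scl-. Points are group differences, lines their 95% intervals from limma, and filled points have an unadjusted p under 0.05; none had an adjusted p under 0.05. Pou5f1 and Dppa5a lie to the right in both comparisons with SclKO and Klf4 to the left.

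The members did not share a single profile. For 9 members, the distance between a pair of profiles was taken as the root mean square of their differences over the 6 arrays, after each was centred on its own mean. Pou5f1 and Dppa5a were the nearest of the 36 pairs, at 0.23 log units, and Prdm14 and Dppa4 the farthest, at 1.67, with a median of 0.83. Of 23960 probe sets of other genes, 13 (0.0543%) lay nearer to Pou5f1 than Dppa5a did. This pair is the nearest of the 36 on the same arrays, so the small share is no separate test of it. Dppa2 lay 0.68 from Dppa4, and 1.46% of the probe sets of other genes lay nearer. Without WT Scl+ replicate 2, Pou5f1 and Dppa5a were still the nearest pair, at 0.13 log units with 9 probe sets nearer (0.0376%). The farthest pair was then Sox2 and Prdm14, at 1.68, and 3.99% of the probe sets lay nearer to Dppa4 than Dppa2 did, at 0.73.

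Other genes near Pou5f1 were Id2, an inhibitor of basic helix-loop-helix factors (distance 0.115), Nnat, an imprinted membrane protein (0.173), Pik3r1, a regulatory subunit of PI3-kinase (0.189), Foxp1, a forkhead factor (0.205), and St3gal3, a sialyltransferase (0.208). The median probe set lay 0.76 away. Id2 was at 7.77 and 7.74 in SclKO, 7.23 and 5.51 in WT Scl+, and 6.89 and 6.85 in WT Scl-. The genes nearest to Nanog were Araf, a kinase of the RAF family (0.228), Alox15, a lipoxygenase (0.246), Thap6 (0.263), Hps5 (0.263) and Prr36 (0.273). All these profiles had WT Scl+ replicate 2 as their lowest array, and the choice of genes rests on it. Without that array, 1 of the 5 genes was still among the 5 nearest to Pou5f1, Id2 at rank 5, and 0 of the 5 among those nearest to Nanog.

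**Figure D3:**
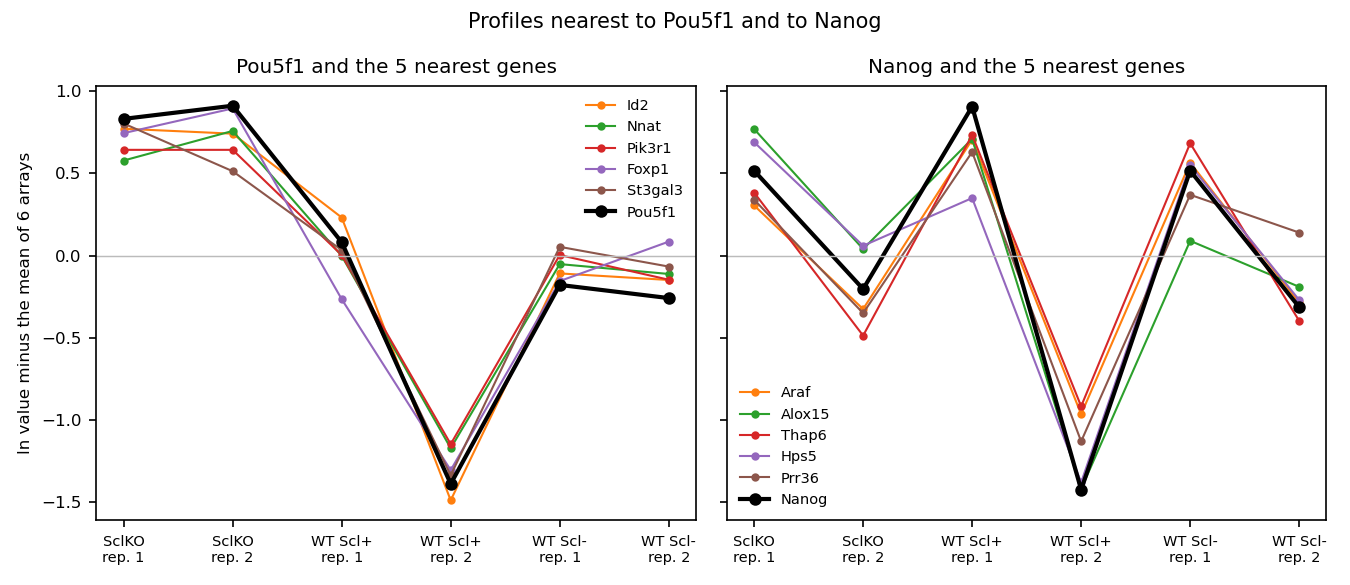
Natural log of the deposited value minus the mean of the 6 arrays (y axis) for Pou5f1 and for Nanog (black), each with its 5 nearest genes (colours), on the 6 arrays (x axis); lines join arrays only to guide the eye. WT Scl+ replicate 2 is the lowest array for all 12 profiles.

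The split between the WT Scl+ arrays ran through most members. With the brightest probe set of each gene, WT Scl+ replicate 1 was above replicate 2 for 9 of 10 members, all but Dppa4, with a median difference of 1.05 log units. Over all probe sets tested it was higher for 59%, with a median of 0.095. Other genes of naive and ES cells lay near that background, with replicate 1 higher for 19 of 32 genes (median 0.14 log units), as did germ cell genes with 5 of 8 (median 0.14). Primed epiblast genes had 9 of 12 (median 0.48). Epithelial genes, which ES cells and epiblast share, were split in the same direction for 10 of 11 genes (median 0.97 log units), and primitive streak genes for 14 of 15 (median 1.02). Cdh1, which encodes E-cadherin, was at 8.4 and 8.97 in SclKO, 9.29 and 7.71 in WT Scl+, and 7.55 and 6.87 in WT Scl-. The blood and endothelial list was split the other way, with replicate 1 higher for 5 of 15 genes (median -0.51). Whether cell mixture or the technical values of WT Scl+ replicate 2 had a part in this split was not tested.

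Among 34 other genes of naive and ES cells, 32 had a probe set and 24 were bright enough to be tested. On all 6 arrays 7 were under the limit, among them Tfcp2l1, Nr0b1 and Tcl1, factors tied to the naive state. In SclKO against WT Scl+, limma called 0 of the 24. At an unadjusted p under 0.05, 6 were higher (7.35% of all probe sets tested) and 4 lower (5.68% of all). The median difference was 0.18 log units. Without WT Scl+ replicate 2 the median was -0.09, and without replicate 1 it was 0.27. Tdgf1, the Nodal co-receptor Cripto, was at 12.57 and 12.56 in SclKO, 11.77 and 10.29 in WT Scl+, and 12.5 and 12.2 in WT Scl-. SclKO was higher than WT Scl+ by 1.54 log units for Tdgf1 (SE 0.46), and by 1.21 for Sall1, a zinc-finger factor (SE 0.36). Tet2, an enzyme that oxidises methylated cytosine, was lower in SclKO, by -1.13 log units (SE 0.4). The limma adjusted p was 0.275, 0.28 and 0.334 for these genes. Leaving out WT Scl+ replicate 2 gave differences of 0.79 for Tdgf1, 0.71 for Sall1 and -0.59 for Tet2. Without replicate 1 the differences were 2.28 for Tdgf1, 1.71 for Sall1 and -1.67 for Tet2.

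In SclKO against WT Scl-, limma called 0 of the 24, and the median was 0.02 log units. At an unadjusted p under 0.05, 2 were higher (2.7% of all probe sets tested) and 1 lower (2.77% of all). Besides Dppa2, they were L1td1, an RNA-binding protein of ES cells (0.86 log units, SE 0.31), and Fgf4, the growth factor that drives exit from the naive state (-0.49, SE 0.17). Between WT Scl+ and WT Scl-, limma called 0, and 1 was higher (4.44% of all) and 2 lower (4.94% of all) at an unadjusted p under 0.05. Tbx3, a T-box factor of ES cells and mesoderm, differed by -0.66 log units (SE 0.19), Tdgf1 by -1.32 (SE 0.46) and Dppa2 by 1.79 (SE 0.71). Tdgf1 was at -0.58 without WT Scl+ replicate 2 and -2.06 without replicate 1, and Dppa2 at 0.66 without WT Scl- replicate 1. The median over the 24 was 0 log units.

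Genes of the primed epiblast, the state that follows the naive one, were higher in SclKO for 10 of 11 tested against WT Scl+ (median 0.58 log units) and for 9 of 11 against WT Scl- (median 0.47). A difference above 0 was found for 56.9% and 52.1% of all probe sets tested. Limma called 0 of the primed genes in either comparison. At an unadjusted p under 0.05, 3 and 2 were higher (7.35% and 2.7% of all). Against WT Scl+, the median was 0.21 without WT Scl+ replicate 2, with 9 of 11 higher, and 0.81 without replicate 1. Against WT Scl-, it was 0.1 without WT Scl- replicate 2 and 0.26 without SclKO replicate 1. Otx2, a homeobox factor of the epiblast, was at 8.93 and 9.37 in SclKO, 8.02 and 5.42 in WT Scl+, and 8.76 and 7.92 in WT Scl-. It was higher in SclKO than in WT Scl+ by 2.43 log units (SE 0.8, limma adjusted p = 0.311). Cdh2, which encodes N-cadherin and is also made in mesoderm, was higher by 1.43 (SE 0.23, limma adjusted p = 0.139) and Zic2 by 1.42 (SE 0.39, limma adjusted p = 0.258). The differences without WT Scl+ replicate 2 were 1.13 for Otx2, 1.15 for Cdh2 and 0.84 for Zic2. Without replicate 1 they were 3.73, 1.7 and 2.

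Against WT Scl-, the primed genes with an unadjusted p under 0.05 were Dnmt3b, a DNA methyltransferase (0.55 log units, SE 0.21, limma adjusted p = 0.898), and Grhl2, an epithelial transcription factor (0.53, SE 0.21, limma adjusted p = 0.898). Streak genes were higher in SclKO than in WT Scl+ for 15 of 15 genes, with a median of 1.45 log units, and than in WT Scl- for 13 of 15, with a median of 0.44. Limma called 0 of the 15 in either comparison. At an unadjusted p under 0.05, 12 and 3 were higher (7.35% and 2.7% of all probe sets tested). Against WT Scl+, the median was 1.08 without WT Scl+ replicate 2, with 15 of 15 still higher, and 2.08 without replicate 1. Against WT Scl-, the median was 0.36 without WT Scl- replicate 2, with 9 of 15 higher, where 51% of all probe sets tested were higher. WT Scl+ was itself lower than WT Scl- for 12 of 15 at an unadjusted p under 0.05 (4.94% of all), with 0 called by limma. The median there was -1.32, or -0.69 without WT Scl+ replicate 2. Gsc, a homeobox factor of the anterior streak, was higher in SclKO by 2.66 log units (SE 0.4) against WT Scl+ and 1.35 (SE 0.4) against WT Scl-.

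Markers of germ cells, which keep Pou5f1, Nanog, Prdm14 and Dppa5a on, went in both directions. Of 9 genes listed, 6 were tested, and Dazl and Ddx4, which mark later germ cells, were under the limit on all 6 arrays. Averaged over the list, levels were 5.92 and 5.72 in SclKO, 5.92 and 5.78 in WT Scl+, and 5.93 and 5.86 in WT Scl-. Tfap2c, a germ cell factor that other embryonic tissues also express, was higher in SclKO than in WT Scl+ by 0.99 log units (SE 0.24, limma adjusted p = 0.216). It was at 10.2 and 10.61 in SclKO, 9.62 and 9.2 in WT Scl+, and 10.29 and 9.94 in WT Scl-. In all, limma called 0 of the 6 in each comparison. At an unadjusted p under 0.05, 1 was higher (7.35% of all) and 1 lower (5.68% of all) in SclKO against WT Scl+. Against WT Scl-, 1 was lower in SclKO (2.77% of all) and 1 in WT Scl+ (4.94% of all).

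Among markers of other tissues, limma called 0 genes in any comparison with all arrays. Of 14 blood and endothelial genes tested, 13 were lower in SclKO than in WT Scl+ at an unadjusted p under 0.05 (median -2.35 log units). In WT Scl+ against WT Scl-, 13 were higher (median 1.86), and in SclKO against WT Scl- 1 was lower (median -0.59). The last median was 0.21 without WT Scl- replicate 2 and -1.24 without WT Scl- replicate 1. Of 10 epithelial genes tested, 2 were higher in SclKO than in WT Scl- at an unadjusted p under 0.05 (median 0.6 log units). In SclKO against WT Scl+, 1 was lower (median 0.23, or -0.51 without WT Scl+ replicate 2 and 0.97 without replicate 1). In WT Scl+ against WT Scl-, 1 was higher (median 0.5, or 1.01 without WT Scl+ replicate 2 and 0.07 without replicate 1). Of 9 endoderm genes, 2 were higher and 2 lower in SclKO against WT Scl+ and 3 were higher against WT Scl-; in WT Scl+ against WT Scl-, 2 were higher and 2 lower. Over all probe sets, 7.35% were higher and 5.68% lower in SclKO against WT Scl+, 2.7% and 2.77% in SclKO against WT Scl-, and 4.44% and 4.94% in WT Scl+ against WT Scl-. Of 4 neuroectoderm genes tested, 1 was higher in WT Scl+ against WT Scl- and 0 passed in the other comparisons at an unadjusted p under 0.05, with 0 called by limma. Their part in the member values was not tested.

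**Figure D4:**
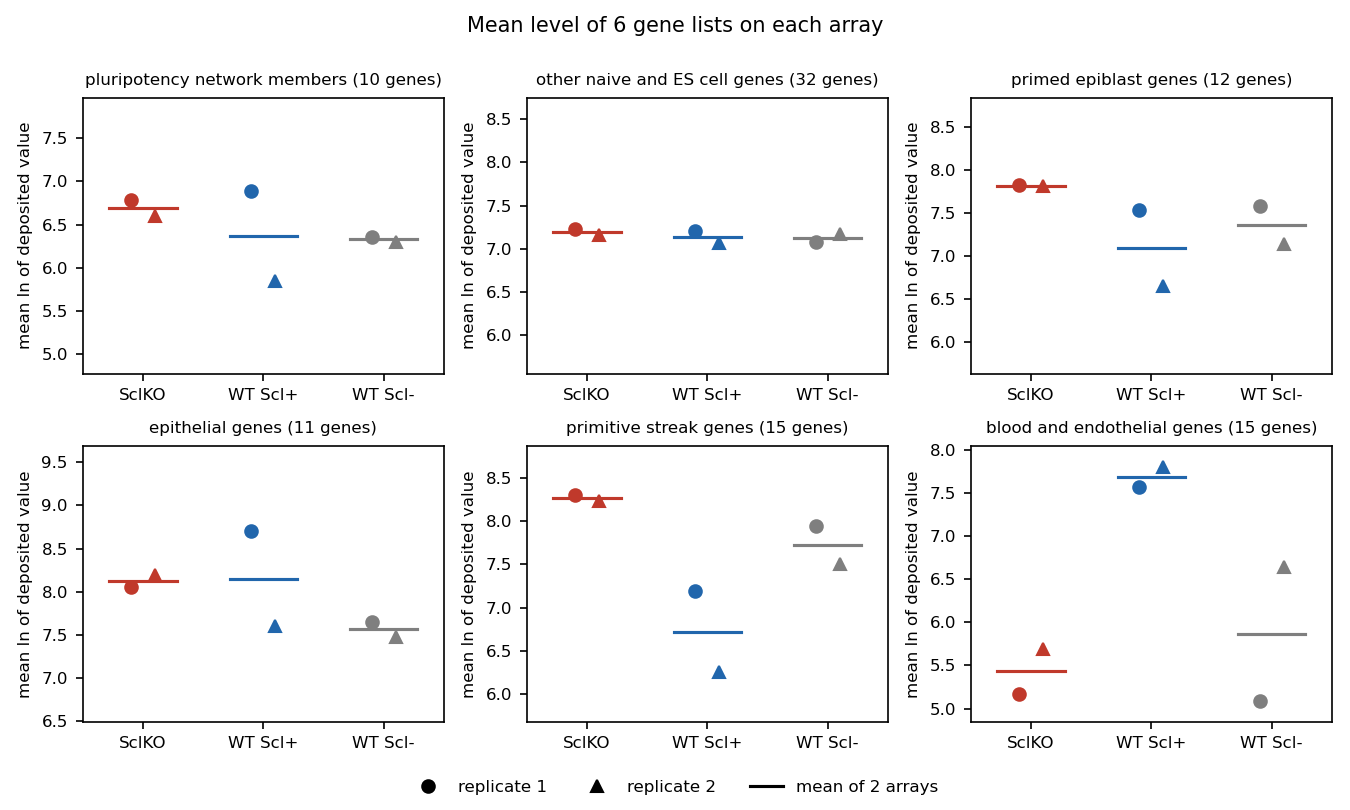
Mean natural log of the deposited values (y axis, each panel spanning 3.2 log units) over the genes of 6 lists, with the brightest probe set of each gene, in SclKO, WT Scl+ and WT Scl- (x axis). Circles are replicate 1, triangles replicate 2 and bars the mean of 2 arrays; the member list is at 6.78 and 6.6, 6.89 and 5.85, and 6.36 and 6.3 in the 3 groups, and the epithelial list shows the same split of the WT Scl+ arrays.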

How the data were processed

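The deposited table gives 1 positive signal value per probe set and array. The submitters' processing notes name RMA, affy and limma without a version. The scale on which the authors deposited the signal is not stated. Values ran from 3.256 to 2822995 and passed the 16-bit ceiling of 65535 on every array, while their natural log ran from 1.18 to 14.85. No column was left unused (0).

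Natural logs were taken, since the values are not on a log scale. The platform annotation gave 1 symbol for 34958 of 45101 probe sets, several for 932 and none for 9211. After 64 controls were removed, 28363 probe sets above the 40th percentile on at least 2 arrays were tested. Group means came from a single limma fit over the 6 arrays (limma 3.58.1, R 4.3.3, residual degrees of freedom 3, prior 3.13), two-sided, with Benjamini-Hochberg adjustment over all probe sets and calls under 0.05. In simulated data with 28363 probe sets, 29.9% of those shifted by 1 log unit were recovered for SclKO against WT Scl+, and 92.5% at 2. The simulated noise was normal and independent between arrays, with the spread that limma estimated, and only SclKO was shifted. These shares may therefore be too high for the real arrays. Otx2, at 2.43 log units for SclKO against WT Scl+, was not called (limma adjusted p = 0.311). The number of arrays, 2 per group, limits the precision.

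The members and lists were chosen with earlier results of these data known. Named were all members, and of each other list up to 3 genes per comparison with the largest difference at an unadjusted p under 0.05 without overlap; of these, the lists of other tissues are given by count or example. The 5 profiles nearest to Pou5f1 and Nanog were also named, while Cdh1, Dppa2's profile and Id2's values were singled out after they were seen. Promoters came from RefSeq tables, and their motifs were chosen after matches had been seen. Alternatives were the replicate block, leaving out each array, the filter, 1 probe set per gene, 2 scalings, an offset, pairwise fits, a trended robust fit and array weights.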

Additional observations from a re-analysis of the deposited data

How the results depend on the processing

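Of 33 member differences under up to 16 alternatives, 491 of 510 values kept their sign and their side of the threshold, 17 changed sign and 2 passed. All 19 exceptions came from leaving out an array. For WT Scl+ against WT Scl-, the ranges without 1 array were -1.17 to 0.3 log units for Pou5f1, -1.52 to 0.81 for Nanog, -0.68 to 2.3 for Sox2, -0.44 to 0.89 for Zfp42, -0.5 to 0.1 for the brighter Klf4 probe set and -0.52 to 0.55 for Dppa5a. For SclKO against WT Scl+ they were -0.76 to 1.58 for Nanog, -0.4 to 2.57 for Sox2 and -0.13 to 1.29 for Prdm14. For SclKO against WT Scl- they were -0.36 to 0.47 for Nanog, -0.4 to 1.84 for Dppa4 and -0.14 to 0.49 for the second Utf1 probe set. Pou5f1 ran from 0.78 to 2.26 and Dppa5a from 0.68 to 1.76 in SclKO against WT Scl+. Their highest values, where they also crossed the threshold, came without WT Scl+ replicate 1. That fit keeps only WT Scl+ replicate 2, the array that stood apart, so no call is drawn from it. The median of the members ran from -0.4 to 0.4 for WT Scl+ against WT Scl-, from -0.23 to 1.09 for SclKO against WT Scl+ and from 0.14 to 0.47 for SclKO against WT Scl-, where it was 0.72 with 1 probe set per gene.

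Counts of probe sets called over the whole table depended more on the settings. Without 1 array they ran from 0 to 46 for WT Scl+ against WT Scl-, 0 to 1172 for SclKO against WT Scl+ and 0 to 3 for SclKO against WT Scl-, the high counts coming without WT Scl+ replicate 1. With all arrays limma called 0 for WT Scl+ against WT Scl-, where 2660 had an unadjusted p under 0.05. From 3 in SclKO against WT Scl+, the count became 1 with 1 probe set per gene, 5 with 50 added before the log, 27 with only the 4 arrays compared and 32 with the trended robust fit. From 3 in SclKO against WT Scl-, it became 1 with 1 probe set per gene, 6 with the filter at the 60th percentile, 6 with 50 added, 11 with the trended robust fit and 7 with array weights. With the replicate block, the counts were 0 for WT Scl+ against WT Scl-, 6 for SclKO against WT Scl+ and 3 for SclKO against WT Scl-, and no member was called; at an unadjusted p under 0.05, the members higher and lower were then 1 and 1 for WT Scl+ against WT Scl-, 2 and 1 for SclKO against WT Scl+ and 3 and 3 for SclKO against WT Scl-, the brighter Klf4 probe set being among the lower ones in both comparisons with SclKO. The replicate differences of the groups correlated at 0.24, 0.21 and 0.21 over probe sets, but the labels do not say what a number shares. The causes of these shifts were not tested. Where both arrays of a group are under the limit for dim probe sets, only a bound can be given.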
